A study of Homo sapiens with 8 samples.

Results

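Sprouty and SPRED genes and PHLDA1 were followed as a group of 7 genes, SPRY1, SPRY2, SPRY4, SPRED1, SPRED2, SPRED3 and PHLDA1, chosen by symbol from the 38148 genes of the HT29 mRNA-seq table. All 7 were found and 6 were tested, because SPRED3 lay under the limit on low values that left 14219 genes. HT29 is a colorectal cancer line that carries an activated BRAF. Selumetinib inhibits MEK, the kinase that activates ERK1/2, and the comparisons ask how these genes respond to it in cells without and with cyclin B1 (CCNB1), a protein of late S, G2 and mitosis. The cells were fixed with glyoxal, stained for CCNB1 protein and sorted, and 2 libraries were made for each of 4 groups, the CCNB1-negative and CCNB1-positive fractions of untreated and of selumetinib-treated cells. All cells were of the same line and were fixed, stained and sorted alike; treated cells had 1 µM selumetinib for 24 h.

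In HT29 cells active BRAF feeds MEK and ERK1/2, and ERK in turn raises the transcription of genes whose products hold the pathway back. Sprouty proteins act near receptor tyrosine kinases and their adaptors, and SPRED proteins bring the RAS GTPase-activating protein neurofibromin (NF1) to the membrane. PHLDA1, a protein with a pleckstrin homology-like domain, is another product of ERK-dependent transcription and is known as a regulator of cell death and of receptor signalling.

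The labels of the 8 libraries were not in accord. The sample title and the short description of each library name opposite treatments and opposite fractions, and the growth medium goes with the title. The groups here follow the descriptions, which are also the column names of the table. If the titles held, the response given here for CCNB1-negative cells would be that of CCNB1-positive cells with its sign turned, and the reverse. CCNB1 mRNA, the check of the sort, stood at log2 values of 13.92 ± 0.19 in the untreated fraction described as positive and 11.83 ± 0.25 in its negative counterpart (mean ± SD, n = 2 each). With the drug it stood at 12.65 ± 0.16 in the positive and 7.57 ± 0.49 in the negative fraction, so it was higher in the fraction described as positive under both treatments. By the titles it would be lower in the positive than in the negative fraction, with and without the drug. By the titles the sum of the G1/S markers described further on, and CCND1, a gene that needs ERK activity, would be higher with the MEK inhibitor in both fractions.

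The libraries held between 12696860 and 23916160 reads on genes, with the treated CCNB1-negative libraries among the shallowest. All 7 colonic epithelial markers were detected in every library. They summed to 9930 to 11000 RPM (reads scaled to the library's total) in untreated libraries, 4570 to 6510 in treated CCNB1-negative and 6140 to 8250 in treated CCNB1-positive ones. KRT8 and KRT18 held most of each sum, and the 7 markers did not move together. With selumetinib 2 were called higher and 3 lower in CCNB1-negative cells, and 2 higher and 1 lower in CCNB1-positive cells. VIL1 and CDX2 were the ones called higher in both fractions. The 6 markers of blood, endothelium, fibroblasts and liver summed to 1.15 to 2.04 RPM in untreated, 2.84 to 3.57 in treated CCNB1-negative and 5.81 to 5.96 in treated CCNB1-positive libraries. Of those 6, CD3E, COL3A1 and ALB had at most 1 read in any library, PTPRC at most 11, PECAM1 at most 25 and COL1A1 at most 107. COL1A1 was the only one tested and was called higher with selumetinib in both fractions (1.81 and 2.19). The part of these moves in the members' responses was not tested.

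The sequences at the starts of SPRED1 and SPRED2 are shown because these near relatives went in opposite directions with the drug. Both are GRCh38.p14 sequences from the RefSeq promoter windows, read 5′ to 3′ on the strand of the gene and limited to the bases upstream of annotated exons. The SPRED1 stretch is chr15:38252586-38252835 on the plus strand and the one of SPRED2 is chr2:65432638-65432849 on the minus strand.
SPRED1: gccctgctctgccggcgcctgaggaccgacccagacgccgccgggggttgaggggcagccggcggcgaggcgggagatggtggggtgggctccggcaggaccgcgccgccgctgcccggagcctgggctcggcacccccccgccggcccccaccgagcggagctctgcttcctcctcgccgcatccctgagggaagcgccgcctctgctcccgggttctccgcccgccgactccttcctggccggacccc
SPRED2: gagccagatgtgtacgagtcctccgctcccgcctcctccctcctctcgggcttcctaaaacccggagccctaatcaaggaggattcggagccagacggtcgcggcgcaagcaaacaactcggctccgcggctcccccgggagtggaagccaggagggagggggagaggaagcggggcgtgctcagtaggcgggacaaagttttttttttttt

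RefSeq gave 12 start windows of 300 bases for the 7 genes, since several have more than 1 start. Letters of factors that act downstream of ERK were searched on both strands: the ETS letters CCGGAAGT and CAGGAAGT, the AP-1 letters TGACTCA and the CRE letters TGACGTCA. Of the 12 windows, 2 held any of them, and in both it was the AP-1 heptamer, which stood in 4.95% of the 35116 windows of all genes. One lay at a start of SPRED2 inside the gene and the other at the downstream start of SPRED3. The stretches of 27 bases around them, with the heptamer in capitals, are chr2:65366768-65366794 on the minus strand and chr19:38389721-38389747 on the plus strand.
SPRED2 internal start: aaccctcggaTGACTCAtccggtacaa
SPRED3 downstream start: cgttgctgggTGACTCAgtgagctttg

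No window of SPRY1, SPRY2, SPRY4, SPRED1 or PHLDA1 held any of these letters, and neither did the window at the first start of SPRED2. The ETS letters stood in 7.02% and the CRE letters in 1.85% of all windows, and in none of the members' windows. Use of single starts was not measured, because the table gives 1 value per gene.

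**Figure D1:**
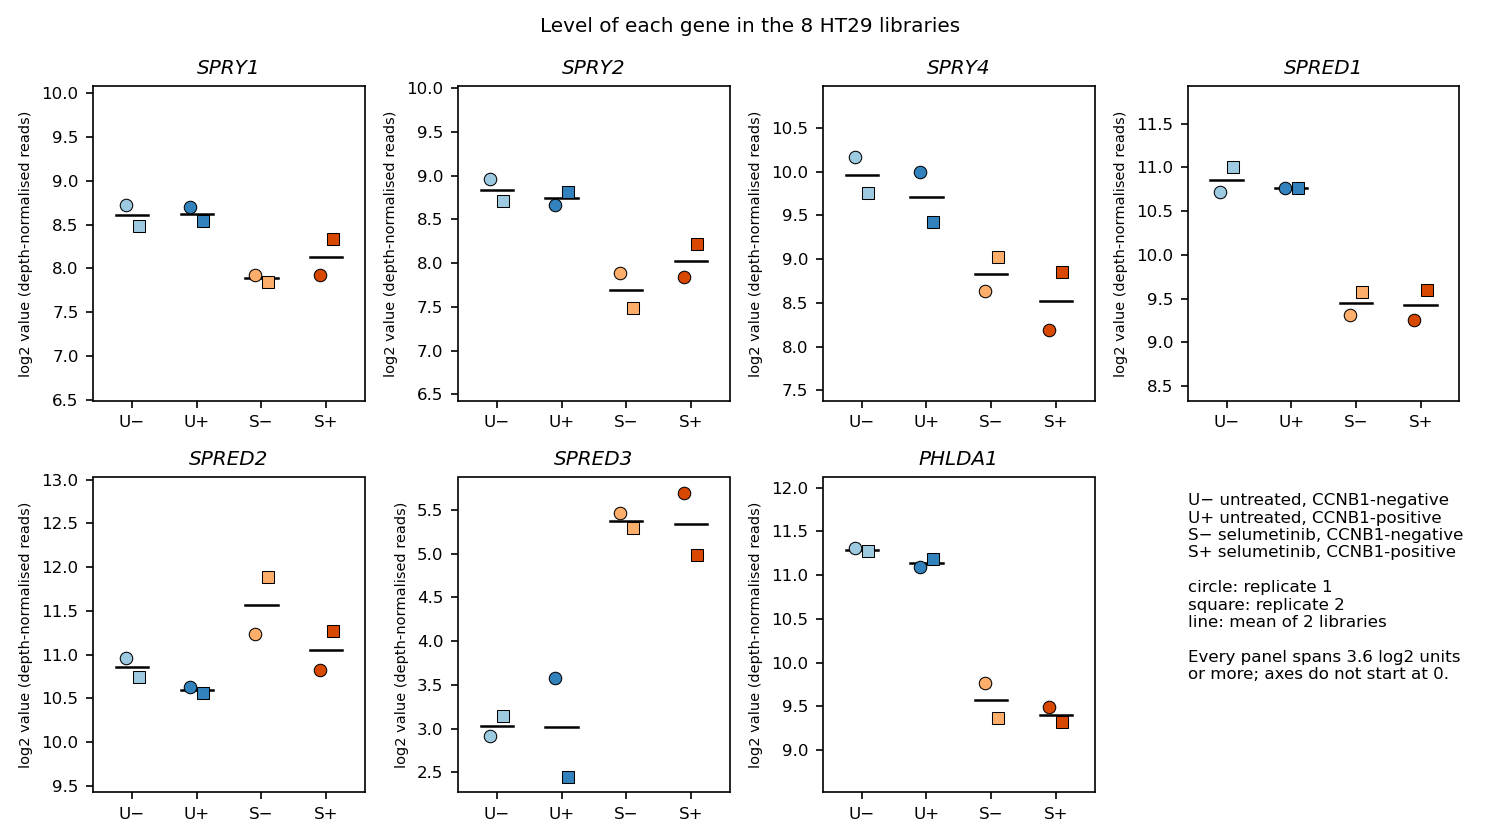
Log2 value (y axis, depth-normalised reads) of each of the 7 genes in the 8 libraries, with groups on the x axis, circles and squares for replicates 1 and 2 and a line at the mean of 2 libraries. SPRY1, SPRY2, SPRY4, SPRED1 and PHLDA1 were lower in all 4 treated libraries, SPRED2 was higher in treated cells within each fraction, and SPRED3 was higher in all 4 treated libraries from very few reads.

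In CCNB1-negative cells 5 of the 6 tested genes fell with selumetinib (limma, adjusted p under 0.05) and SPRED2 rose. PHLDA1 and SPRED1 had the largest falls, 3.29-fold and 2.68-fold, and the 3 Sprouty genes fell between 1.65-fold and 2.21-fold. Over all 14219 genes 35.8% were called lower and 38.2% higher in this comparison, and the median change was 0.05 on the log2 scale against -1.14 over the 6 members. In CCNB1-positive cells the same 5 genes fell and SPRED2 missed the threshold. There 27.3% of all genes were called lower and 38.0% higher, with a median change of 0.17 against -0.96 over the 6 members. In bulk RNA of this kind, fewer cells that use a gene and less of its mRNA in each cell cannot be told apart.

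**Figure D2:**
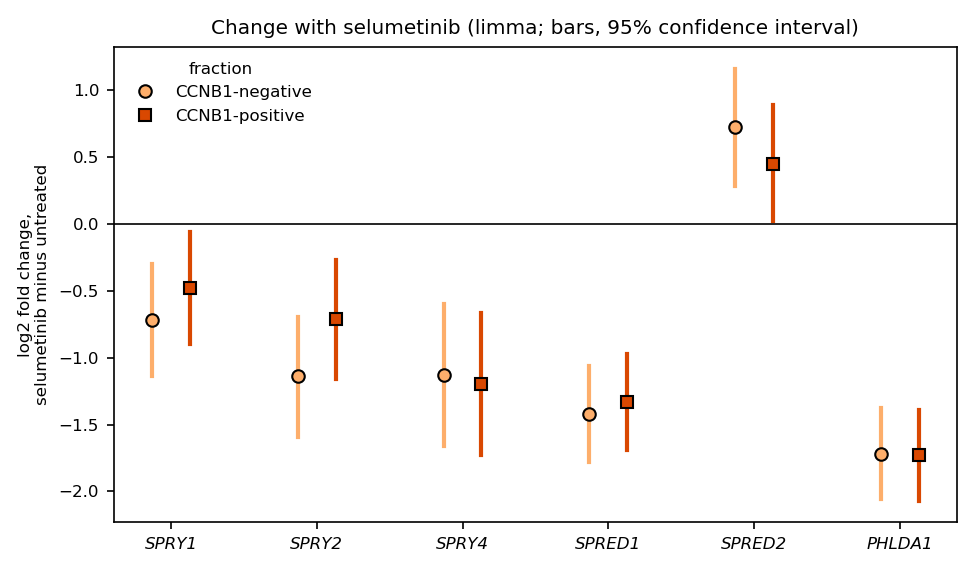
Log2 fold change with selumetinib (y axis) of the 6 tested genes in CCNB1-negative cells (circles) and CCNB1-positive cells (squares), with 95% confidence intervals from limma as bars. The intervals of SPRY1, SPRY2, SPRY4, SPRED1 and PHLDA1 lie below 0 in both fractions and those of SPRED2 lie above 0, the lower end in CCNB1-positive cells being 0.02.

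The Sprouty genes encode the antagonists that act nearest to the receptors. SPRY1 (ENSG00000164056, GRCh38 chr4:123396795-123403760, plus strand) had log2 values of 8.72 and 8.49 in untreated CCNB1-negative cells, 8.70 and 8.54 in untreated CCNB1-positive cells, 7.92 and 7.85 in treated CCNB1-negative cells and 7.93 and 8.34 in treated CCNB1-positive cells. All 4 treated libraries lay below all 4 untreated ones, the second treated CCNB1-positive library only by a little. The change in CCNB1-negative cells was -0.72 (SE 0.20, limma adjusted p = 0.0041), and that in CCNB1-positive cells was -0.48 (SE 0.20, limma adjusted p = 0.042). The second of these calls was fragile and was lost in 8 of 17 alternative fits. It was lost when any of 4 libraries was left out. These were replicate 1 of untreated CCNB1-negative cells (a change of -0.48), either replicate of untreated CCNB1-positive cells (-0.40 and -0.56) and replicate 1 of treated CCNB1-positive cells (-0.28). It was also lost with limma-voom (-0.40, adjusted p = 0.076) and a pseudocount of 0.1 RPM (-0.38, limma adjusted p = 0.11), both scaled to reads on genes, unlike the deposited values. The same held with no limit on low values (-0.48, limma adjusted p = 0.057) and with the nuclear scaling given below.

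SPRY2 (ENSG00000136158, chr13:80335976-80341126, minus strand) binds the adaptor GRB2 and the ubiquitin ligase CBL. Its log2 values were 8.96 and 8.71, then 8.67 and 8.81 in the untreated negative and positive fractions, and 7.89 and 7.49, then 7.84 and 8.22 in the treated ones. Treated and untreated libraries did not overlap. It fell by 1.14 (SE 0.21, limma adjusted p = 0.00019) in CCNB1-negative cells. Reads there were 333 to 458 without and 106 to 151 with the drug, not corrected for the lower depth of the treated libraries. In CCNB1-positive cells it fell by 0.71 (SE 0.21, limma adjusted p = 0.0080). This call was lost without replicate 2 of untreated CCNB1-positive cells (-0.64, limma adjusted p = 0.056) or replicate 1 of treated CCNB1-positive cells (-0.52, limma adjusted p = 0.092).

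SPRY4 (ENSG00000187678, chr5:142310427-142326455, minus strand), a family member also known to bind the kinase TESK1, had untreated log2 values of 10.17 and 9.76 in the negative and 10 and 9.43 in the positive fraction. The treated values were 8.64 and 9.02, and 8.19 and 8.85. Treated and untreated libraries did not overlap. The changes were -1.13 (SE 0.25, limma adjusted p = 0.00088) in CCNB1-negative and -1.20 (SE 0.25, limma adjusted p = 0.00080) in CCNB1-positive cells. The first 1163 bases of SPRY4 overlap the antisense gene SPRY4-AS1, which had between 92 and 254 reads, and since it is not known whether the table used strand, reads from the shared bases cannot be told apart.

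SPRED1 (ENSG00000166068, chr15:38252836-38357249, plus strand) encodes the SPRED protein best known for recruiting neurofibromin. Its log2 values in untreated cells were 10.72 and 11.0 in the negative fraction and 10.76 in both libraries of the positive fraction. Treated cells had 9.31 and 9.58, and 9.26 and 9.60, so that the highest treated library lay more than 1 log2 unit under the lowest untreated one. The changes were -1.42 (SE 0.17, limma adjusted p = 4e-06) and -1.33 (SE 0.17, limma adjusted p = 1.5e-05) in CCNB1-negative and CCNB1-positive cells.

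SPRED2 (ENSG00000198369, chr2:65310851-65432637, minus strand) shares its domains and its function in RAS signalling with SPRED1 but did not share its response. Its log2 values were 10.96 and 10.75 in untreated CCNB1-negative cells, 10.63 and 10.56 in untreated CCNB1-positive cells, 11.24 and 11.89 in treated CCNB1-negative cells and 10.83 and 11.27 in treated CCNB1-positive cells. Within each fraction both treated libraries were above both untreated ones, but the lower treated CCNB1-positive library lay under the higher untreated CCNB1-negative library. The change in CCNB1-negative cells was 0.72 (SE 0.20, limma adjusted p = 0.0058). It was 0.39 (limma adjusted p = 0.091) without replicate 2 of treated CCNB1-negative cells, the highest of the 8 libraries. In CCNB1-positive cells the change was 0.45 (95% interval 0.02 to 0.89, limma adjusted p = 0.064). That value passed the threshold in 8 of 17 alternative fits, among them limma-voom (0.56, adjusted p = 0.027) and quantile normalization (0.58, limma adjusted p = 0.032). It was 0.68 (limma adjusted p = 0.027) without replicate 1 and 0.23 (limma adjusted p = 0.43) without replicate 2 of treated CCNB1-positive cells.

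Scaling bears on SPRED2 and SPRY1 in particular. The median change of all genes moved between -0.21 and 0.36 in CCNB1-negative cells and between -0.18 and 0.42 in CCNB1-positive cells over the authors' scaling and 5 other scalings or models (quantile, median-ratio, nuclear reads, limma-voom and a pseudocount). With median-ratio size factors SPRED2 changed by 0.46 (limma adjusted p = 0.05, on the failing side) in CCNB1-negative and 0.11 (limma adjusted p = 0.65) in CCNB1-positive cells, whereas with scaling to the reads of nuclear genes other than MALAT1 its change in CCNB1-positive cells was 0.71 (limma adjusted p = 0.011). With that nuclear scaling SPRY1 changed by -0.41 (limma adjusted p = 0.085) and -0.23 (limma adjusted p = 0.33), and SPRY2 in CCNB1-positive cells by -0.46 (limma adjusted p = 0.072). Relative to the median of all genes in the same fit, SPRED2 was between 0.67 and 1.00 higher in CCNB1-negative cells and between 0.29 and 0.65 higher in CCNB1-positive cells, and SPRY1 was 0.77 to 0.92 and 0.65 to 0.79 lower. The direction of all 6 genes was the same in every one of these fits.

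The contrast between SPRED1 and SPRED2 can be read within each library, where scaling cancels. The difference of their log2 values, SPRED1 minus SPRED2, was -0.23 and 0.26 in untreated CCNB1-negative cells and 0.13 and 0.20 in untreated CCNB1-positive cells. With selumetinib it was -1.94 and -2.32 in CCNB1-negative and -1.57 and -1.67 in CCNB1-positive cells. The treated and untreated libraries were thus separated by more than 1 log2 unit, with both genes near one another without the drug and SPRED2 well above SPRED1 with it.

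SPRED3 (ENSG00000188766, chr19:38388421-38399587, plus strand), the third SPRED gene, was close to the limit of detection. It had 7 and 7 reads in untreated CCNB1-negative libraries, 12 and 5 in untreated CCNB1-positive, 28 and 23 in treated CCNB1-negative and 46 and 20 in treated CCNB1-positive libraries. In RPM these were between 0.227 and 0.502 in untreated and between 1.42 and 2.30 in treated cells, without overlap. It was not among the tested genes. In a fit with no limit on low values its change was 2.34 (SE 0.70, limma adjusted p = 0.013) in CCNB1-negative and 2.32 (SE 0.70, limma adjusted p = 0.017) in CCNB1-positive cells, and at this depth the size is imprecise, with 95% intervals of 0.86 to 3.82 and 0.84 to 3.79.

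**Figure D3:**
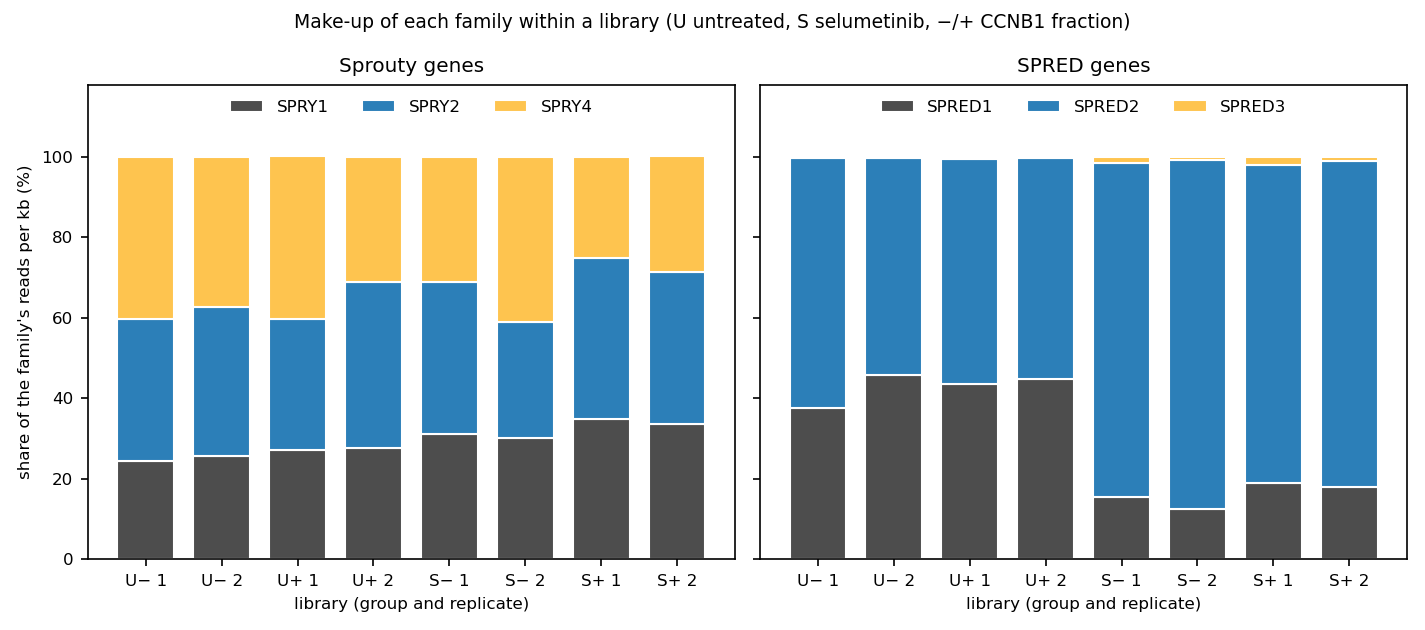
Share of each family's reads per kb of merged exons (y axis, %) held by each gene in the 8 libraries (x axis, U untreated, S selumetinib, minus and plus for the CCNB1 fraction, then the replicate). SPRED1 held 37.6% to 45.8% of SPRED reads per kb in untreated and 12.4% to 18.9% in treated libraries, while each Sprouty gene held between 24.4% and 41.2% of Sprouty reads per kb.

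Per kilobase of merged exons, the make-up of the SPRED family shifted towards SPRED2. SPRED1 held 37.6% to 45.8% of the SPRED reads per kb in untreated CCNB1-negative and 43.5% to 44.9% in untreated CCNB1-positive libraries, and 12.4% to 15.4% and 18.0% to 18.9% in the treated ones. SPRED2 went from 53.9% to 62.2% in untreated CCNB1-negative libraries up to 83.2% to 86.8% in treated ones, and from 54.9% to 56.1% up to 79.0% to 81.0% in CCNB1-positive libraries. SPRED3 held at most 2.11% in any library. Among Sprouty genes the share of SPRY1 was 24.4% to 27.7% without and 30.1% to 34.8% with selumetinib, whereas the shares of SPRY2 and SPRY4 overlapped between treated and untreated libraries.

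PHLDA1 (ENSG00000139289, chr12:76025447-76033932, minus strand) had the largest change of the tested members in both fractions. Its untreated log2 values were 11.31 and 11.27 in CCNB1-negative and 11.09 and 11.18 in CCNB1-positive cells, against 9.77 and 9.37, and 9.49 and 9.32, with selumetinib. The lowest untreated library was more than 1 log2 unit above the highest treated one. The changes were -1.72 (SE 0.16, limma adjusted p = 4.1e-07) and -1.73 (SE 0.16, limma adjusted p = 1.2e-06). The table sets the upstream edge of PHLDA1 at 76033932, further out than 76031776 in GENCODE 44. Antisense genes of at most 20 reads lie within its span. Of its paralogs PHLDA2 fell as well, by 2.22 in the negative (limma adjusted p = 3.3e-08) and 1.64 in the positive fraction (limma adjusted p = 1.4e-06). PHLDA3, known as a target of p53, had changes of -0.57 (limma adjusted p = 0.053) and 0.35 (limma adjusted p = 0.24). The first of these was called with quantile normalization, with median-ratio size factors and with only the compared groups fitted, among other fits. It was -0.91 without replicate 1 and -0.24 without replicate 2 of treated CCNB1-negative cells.

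Levels between genes were compared in RPKM (RPM per kb of merged exons). RPM takes the reads on genes as the total, unlike the deposited scaling, so its ratios between groups differ from the fitted changes. In untreated CCNB1-negative cells the order was PHLDA1 at 17.7 ± 0.487 (SD, n = 2), SPRED2 at 14.1 ± 1.57, SPRED1 at 10.1 ± 1.30, SPRY4 at 6.43 ± 1.34, SPRY2 at 5.96 ± 0.756, SPRY1 at 4.12 ± 0.491 and SPRED3 at 0.0584 ± 0.00572. SPRY4 and SPRY2 overlapped there, at 5.48 to 7.38 and 5.42 to 6.49 RPKM. In treated CCNB1-negative cells SPRED2 came first at 26.1 ± 8.50 RPKM (SD, n = 2), ahead of PHLDA1 at 5.97 ± 1.10, SPRED1 at 4.15 ± 0.598, SPRY4 at 3.23 ± 0.649, SPRY2 at 2.98 ± 0.539, SPRY1 at 2.74 ± 0.0533 and SPRED3 at 0.325 ± 0.023. The 3 Sprouty genes overlapped in this group. The CCNB1-positive groups gave SPRED2 17.4 ± 3.91 RPKM (SD, n = 2) with selumetinib against 11.7 ± 0.480 without, and PHLDA1 5.13 ± 0.378 against 15.8 ± 0.569.

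The CCNB1-positive and CCNB1-negative fractions were compared next, CCNB1 protein being a mark of cells past G1. In untreated cells 0 of the 6 tested members differed between the fractions, where 2.87% of all genes were called. The count was also 0 at an unadjusted p under 0.05, a limit at which all genes were not counted. With limma-voom on recovered reads it was 0 as well, against 2.86% of all genes. The smallest limma adjusted p was 0.69, for SPRED2. In treated cells again 0 of 6 passed, against 21.6% of all genes, and 1 passed at an unadjusted p under 0.05, as with limma-voom. This was SPRED2, which was lower by 0.52 in CCNB1-positive cells (95% interval -0.96 to -0.08, limma adjusted p = 0.083). This value moved with single libraries. It was -0.85 without replicate 1 and -0.20 without replicate 2 of treated CCNB1-negative cells, and -0.30 without replicate 1 of treated CCNB1-positive cells. These fits left a library without its equal-numbered counterpart, and deviations from group means correlated at 0.43 between the treated fractions. Between treated libraries of equal number SPRED2 stood at 10.83 against 11.24 and 11.27 against 11.89, lower in CCNB1-positive cells each time. A fit with a term for replicate number within each treatment called SPRED2 and SPRY4, both lower in CCNB1-positive cells, and 46.9% of all genes.

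The response to selumetinib itself was compared between the fractions by the interaction term. Of all genes 5.33% were called, and of the 6 members 0, also at an unadjusted p under 0.05 and with limma-voom. The intervals leave room for differences in either direction. SPRY2 had the largest estimate, with a response less negative by 0.43 in CCNB1-positive cells (95% interval -0.20 to 1.06, limma adjusted p = 0.43). For PHLDA1 the difference was -0.01 (95% interval -0.50 to 0.47), for SPRED1 0.09 (-0.42 to 0.60), for SPRY1 0.24 (-0.35 to 0.83), for SPRED2 -0.26 (-0.88 to 0.36) and for SPRY4 -0.07 (-0.82 to 0.68).

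Cell cycle markers moved with both treatment and fraction. The 6 G2/M markers summed to 743 to 825 RPM in untreated CCNB1-negative, 3350 to 3770 in untreated CCNB1-positive, 84.3 to 108 in treated CCNB1-negative and 2680 to 2820 in treated CCNB1-positive libraries. The 6 G1/S markers summed to 1010 to 1140, 444 to 461, 69.1 to 81.6 and 163 to 176 RPM in the same order. Between untreated fractions, which were sorted on CCNB1 protein, all 12 of these markers were called. No member was called there, nor were most genes, since 2.87% of all genes were called. The part of these markers in the members' responses was not tested.

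A list of 12 genes chosen for feedback on the pathway was also read, of which 11 were tested and IL17RD was not. Whether each listed gene, IER3 and TRIB1 among them, restrains the pathway was not tested. In CCNB1-negative cells, where 35.8% of all genes were called lower and 38.2% higher, 7 fell, 3 rose and 1 did not pass. The median change was -0.78 against 0.05 over all genes. DUSP7, DUSP6, DUSP5 and DUSP4, which encode phosphatases of ERK and related kinases, were among those that fell. The 3 largest changes were in DUSP7 (-2.61, limma adjusted p = 2.7e-06), in IER3 (-1.86, limma adjusted p = 1.6e-06), an immediate early gene, and in DUSP6 (-1.75, limma adjusted p = 2.2e-06), the ERK phosphatase of the cytoplasm. NF1, the partner of SPRED proteins, rose by 1.48 (limma adjusted p = 7.1e-06), as did LRIG1 and TRIB1. In CCNB1-positive cells, where 27.3% of all genes were called lower and 38.0% higher, 6 fell, 3 rose and 2 did not pass. The median there was -0.46 against 0.17, with DUSP7 at -1.88, IER3 at -1.53 and DUSP6 at -1.06. With median-ratio size factors 1 rather than 3 rose there.

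**Figure D4:**
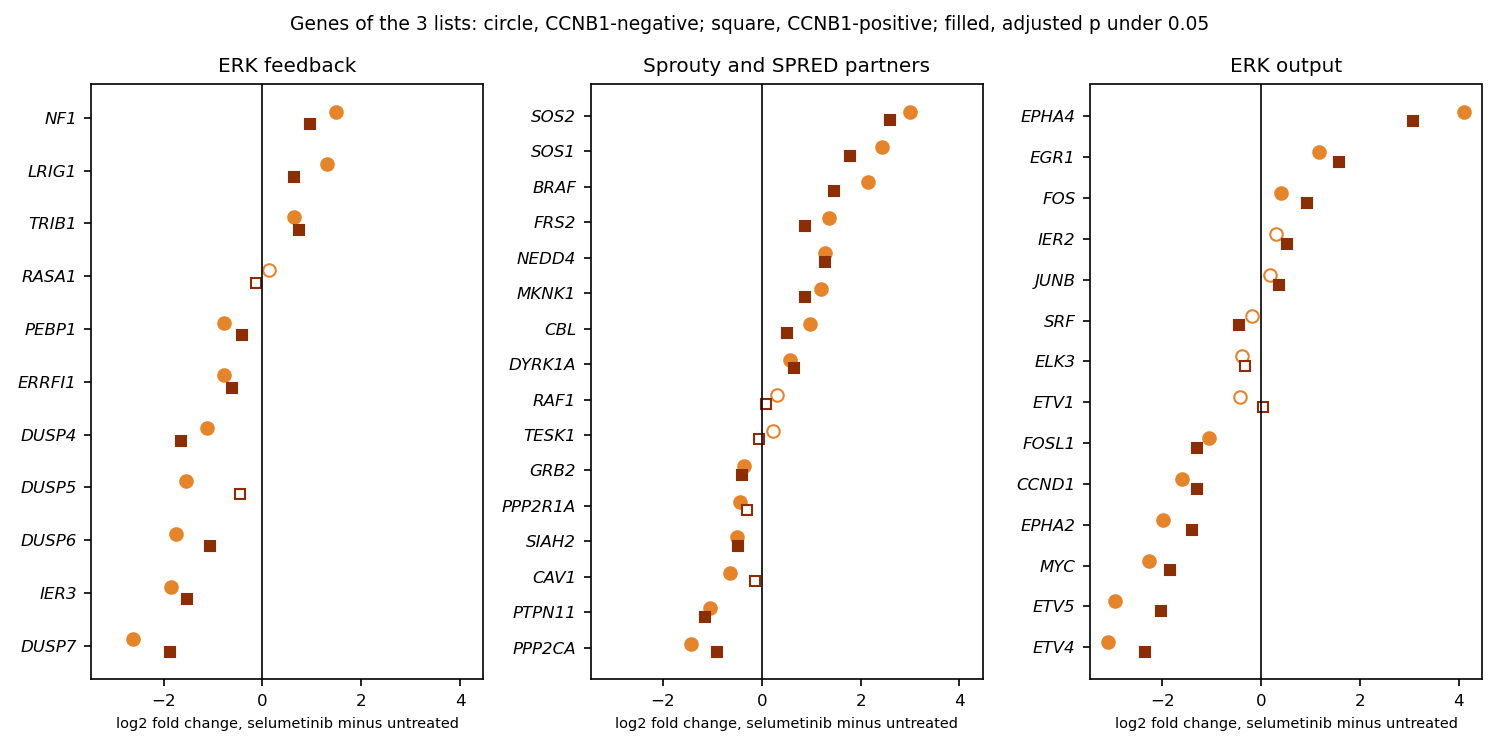
Log2 fold change with selumetinib (x axis) of the tested genes of 3 lists (y axis) in CCNB1-negative cells (circles) and CCNB1-positive cells (squares), filled where the limma adjusted p is under 0.05. In CCNB1-negative cells DUSP7 (-2.61), ETV4 (-3.10) and ETV5 (-2.95) lie lowest, while SOS2 (2.99), SOS1 (2.44), BRAF (2.14) and EPHA4 (4.11) lie highest.

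Partners of the Sprouty and SPRED proteins went both ways. Of 16 genes on that list, 8 rose, 6 fell and 2 did not pass in CCNB1-negative cells, where 38.2% of all genes were called higher and 35.8% lower. In CCNB1-positive cells 8 rose, 4 fell and 4 did not pass, with 38.0% of all genes called higher and 27.3% lower. The medians were 0.44 and 0.29 against 0.05 and 0.17 over all genes. SOS2 and SOS1 encode exchange factors that load RAS with GTP. In the negative fraction SOS2 rose by 2.99 (limma adjusted p = 1.4e-08), SOS1 by 2.44 (limma adjusted p = 4.9e-08) and BRAF by 2.14 (limma adjusted p = 4.1e-07), and in the positive fraction these 3 rose by 2.59, 1.78 and 1.46. The falls included PPP2CA, the catalytic subunit of a phosphatase that acts on Sprouty proteins, at -1.43 (limma adjusted p = 4.1e-06), and PTPN11, which encodes the phosphatase SHP2, at -1.05 (limma adjusted p = 5.2e-05). The count of partners that fell was 2 in each fraction with nuclear scaling.

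The list of ERK output genes holds genes chosen as transcribed downstream of the kinase. In CCNB1-negative cells, where 35.8% of all genes were called lower and 38.2% higher, 6 of 14 fell, 3 rose and 5 did not pass. In CCNB1-positive cells, with 27.3% of all genes called lower and 38.0% higher, 7 fell, 5 rose and 2 did not pass. The medians were -0.41 and -0.39, against 0.05 and 0.17 over all genes. The ETS factor genes had changes of -3.10 for ETV4 (limma adjusted p = 8.1e-07) and -2.95 for ETV5 (limma adjusted p = 8.8e-07) in the negative fraction, and of -2.34 and -2.02 in the positive one. MYC, EPHA2, CCND1 and FOSL1 fell in both fractions. The ephrin receptor gene EPHA4 went the other way, by 4.11 (limma adjusted p = 6.7e-07) and 3.08, and the immediate early genes EGR1 and FOS rose as well, EGR1 by 1.17 (limma adjusted p = 0.00032) and FOS by 0.41 (limma adjusted p = 0.040) in the negative fraction. The number of output genes called higher was 5 in CCNB1-negative cells with quantile or nuclear scaling, and 3 in CCNB1-positive cells with median-ratio size factors. No gene of the feedback, partner, output or PHLDA lists was called in the interaction, nor were most genes, since 5.33% of all genes were called there.

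Over the 8 libraries the log2 values of SPRY1 and SPRY2 had a Pearson r of 0.96 and those of SPRED1 and PHLDA1 of 0.95, while SPRED2 had r between -0.76 and -0.37 with the other 5. These are descriptions over 8 libraries in groups that share treatment. The choice of genes below depends on the measure: by Spearman's rho none of the 3 named genes was at the highest value for SPRY1, SPRED2 or PHLDA1, and 1 of 3 was for SPRY2, SPRY4 and SPRED1. The tested genes outside the group with the highest r were ABHD15 with SPRY2 (0.998), DESI1 with SPRED1 (0.997), DNAJA3 with PHLDA1 (0.996), UBE2G2 with SPRY4 (0.994), SAMD5 with SPRED2 (0.990) and ZNF239 with SPRY1 (0.987). Next came MPHOSPH6 and CLTB for SPRY2, SLC35F2 and SFXN4 for SPRED1, AKT1S1 and TMEM248 for PHLDA1, SLC43A1 and HAGHL for SPRY4, FNIP2 for SPRED2, and MST1R and SNHG17 for SPRY1, at r between 0.970 and 0.995.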

How the data were processed

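Poly(A) mRNA-seq was made from sorted, glyoxal-fixed HT29 cells. Per the submitters' processing notes and the methods, the authors used Trim Galore 0.5.0 and HISAT2 2.1.0 (GRCh38) and deposited a gene table of log2 values from SeqMonk, normalised to total read count; the annotation release and use of strand are not given in the sources used here. Whole reads were recovered from the steps of the log2 values (99.99% to 100% of genes with reads, within 0.01), which gave the depth of each library; genes without a read carry 0.9 reads. Counting error limits the low genes most.

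Groups came from the sample descriptions. Genes averaging 4.58 or more on the log2 scale (1 RPM) were tested with limma 3.58.1 (R 4.3.3, trend, all 8 libraries, 1 coefficient per group) and Benjamini-Hochberg adjustment over 14219 genes, at an adjusted p of 0.05. The labels do not say that replicates are separate cultures; the study calls its replicates biological for the matching COLO205 experiment. P-values measure the spread between these libraries, which may be technical. Replicates differed beyond sampling noise (chi-square per gene 17.3 to 33.5). In simulated data for treatment in CCNB1-negative cells (14833 genes), 100% of 4-fold and 85% of 2-fold changes were recovered. Exon lengths came from GENCODE 44, in which 99.3% of identifiers were found. The members and gene lists were chosen with earlier results of these data known. All members were named, with CCNB1, the 3 genes of each list with the largest change in CCNB1-negative cells, and the 3 genes most correlated with each member, of which 1 is not reported here; other listed genes were named after their values were seen. Alternatives were other thresholds, filters, scalings, a pseudocount of 0.1 RPM, limma-voom, blocks, fewer groups and each library left out. Figures used matplotlib 3.10.9.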

Additional observations from a re-analysis of the deposited data

How the results depend on the processing

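The falls of SPRY4, SPRED1 and PHLDA1 with selumetinib passed the threshold in both fractions, and that of SPRY2 in CCNB1-negative cells, under all 17 alternatives fitted. No member changed direction in either treatment comparison. Requiring 4-fold left 0 called in each fraction. Leaving out each library gave 5 to 6 called in CCNB1-negative and 3 to 6 in CCNB1-positive cells, the lowest without replicate 2 of untreated CCNB1-positive cells, where fewer samples remain. Among the fits with a library left out, the share of all genes called in CCNB1-positive cells was also lowest in that fit. The lower count of members there is thus not particular to the members. Between treated fractions 1 member (SPRED2) was called with quantile normalization, a fit that called 29.5% of all genes there. The difference of SPRED2 ran from -0.85 to -0.20 over the libraries left out. The labels do not say what libraries of equal replicate number share. Deviations from group means correlated at 0.35 and 0.43 between fractions of the same treatment and at -0.09 to 0.08 across treatments. With a replicate block over all libraries 6, 5, 0, 0 and 0 members were called, in the order of the report. Of all genes that fit called 76.6%, 68.7%, 3.52%, 26.3% and 6.21% in the same order. In it PHLDA3 passed in CCNB1-negative cells (-0.57, limma adjusted p = 0.015). With a replicate block by treatment 2 (SPRED2 and SPRY4, both lower in CCNB1-positive cells) were called between treated fractions, where that fit called 46.9% of all genes.

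Uncalled differences near 0 changed sign. With median-ratio size factors the difference between untreated fractions was 0.02 for SPRY2 and 0.01 for SPRED1, and between treated fractions 0.01 for SPRED1. With quantile normalization the interaction of SPRED1 was -0.0036. Over the libraries left out, the untreated difference ran from -0.10 to 0.13 for SPRY1, -0.22 to 0.03 for SPRY2, -0.53 to 0.04 for SPRY4 and -0.25 to 0.04 for SPRED1. The treated difference ran from -0.64 to 0.01 for SPRY4, -0.19 to 0.16 for SPRED1 and -0.37 to 0.04 for PHLDA1. The interaction ran from -0.40 to 0.26 for SPRY4, -0.08 to 0.26 for SPRED1, -0.59 to 0.06 for SPRED2 and -0.22 to 0.19 for PHLDA1. The cause was not tested.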
